A study of Homo sapiens with 6 samples.

Results

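The BCL2 family decides whether a cell keeps or loses the integrity of its mitochondria, and 10 of its genes are described here in a lung cancer cell line whose EGFR was blocked. The 10 genes were picked by name, not by a measured threshold, but with earlier results of these data known. Each was found as a row of the deposited table of 28395 genes. They comprise 6 BH3-only genes (BMF, BCL2L11, BBC3, PMAIP1, BIK and BAD), 3 pro-survival genes (BCL2, BCL2L1 and MCL1) and 1 effector gene (BAX). The cells were HCC827, an established line from a lung adenocarcinoma with an activating deletion in EGFR, a receptor tyrosine kinase that drives growth. The study sequenced mRNA from 3 libraries given only the vehicle DMSO and 3 given erlotinib, an inhibitor of the EGFR kinase, at 1 μM, and both groups were held for 24 h. All libraries came from this single line, and the labels do not say whether the 3 libraries of a group were separate cultures. The study's methods report at least 3 independent repeats of each experiment outside the animal work, but do not tie them to these libraries. The p-values therefore measure the spread between libraries, which may be technical. The erlotinib libraries are numbered 4 to 6 in the table, and those numbers are kept below. The libraries held 20760204 to 24641819 reads on genes. Values are given as signal, meaning reads divided by 1 size factor per library, and a signal of 3 reads was 2.77 to 3.40.

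In this family the proteins bind each other. BH3-only proteins sense stress or the loss of growth signals and act through a short helix, the BH3 domain, that fits into a groove of the pro-survival proteins. Pro-survival proteins hold BH3-only proteins and effectors in check, and free effectors (BAX and its relative BAK1) open the outer mitochondrial membrane, which releases cytochrome c and starts caspase activation. In cells that depend on EGFR, signalling through ERK and AKT is known to restrain BH3-only proteins, both by transcription and by phosphorylation, and RNA shows only the first of these.

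Epithelial markers were abundant in all 6 libraries. EPCAM, an epithelial adhesion molecule, had a mean signal of 9852 ± 235 (SD, n = 3) with DMSO, against 9485 ± 281 (SD, n = 3) under erlotinib, and CDH1, the epithelial cadherin, 27824 ± 967 and 30609 ± 633 (SD, n = 3 each). All 8 epithelial markers searched for were present and tested (2 higher, 4 lower and 2 neither, limma). These counts are 25% higher and 50% lower, against 35.3% and 35.4% over all tested genes. The summed signal of the 8 markers was 273270 to 306620 in DMSO and 219349 to 224933 with erlotinib. KRT7, a keratin of simple epithelia, was the most abundant (123686 ± 7643 and 79897 ± 2922, SD, n = 3 each). EPCAM and CDH1 were the markers that passed in neither direction. All 4 keratin genes fell, with log2 fold changes of -1.25 for KRT18, -0.83 for KRT8, -0.63 for KRT7 and -0.39 for KRT19, and CLDN4, a tight junction protein, rose by 0.93. Of 12 markers of lymphoid and myeloid cells, 2 had enough signal to test, and 3 stayed at 3 reads or fewer in every library. Their sum was 2811 to 3196 in DMSO and 3277 to 3559 with erlotinib, nearly all of it from CD68, a lysosomal protein that is not restricted to myeloid cells, while PTPRC, the defining leukocyte marker, had 0 to 6 reads. Of 10 fibroblast and endothelial markers, 3 could be tested. Of these 2 were higher, 0 lower and 1 neither, against 35.3% higher and 35.4% lower over all tested genes. The sum of the 10 markers was 91.0 to 130 in DMSO and 261 to 318 with erlotinib. Most of it came from COL1A1, a collagen chain, at 77.7 ± 15.3 and 216 ± 27.9 (SD, n = 3 each). COL1A1 was called higher (log2 fold change 1.47, adjusted p = 6.8e-07, limma). VWF, the von Willebrand factor of endothelium, was also higher, with 3, 1 and 7 reads in DMSO and 38, 26 and 23 with erlotinib (log2 fold change 2.75, adjusted p = 6.6e-04, limma). PECAM1 passed in neither direction, LUM was not tested at 2 to 6 reads in DMSO and 10 to 20 with erlotinib, and COL1A2, DCN and KDR had at most 4 reads in any library. The part of these marker genes in the results below was not tested, and in bulk RNA fewer cells of a kind and less RNA per cell cannot be told apart.

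The 6 BH3-only genes did not move in one direction with erlotinib. BMF, BBC3 and BCL2L11 rose, PMAIP1 and BIK fell, and BAD passed the test in neither direction. Both pro-survival genes with enough reads, BCL2L1 and MCL1, fell, as did BAX. Of the 9 members tested (a mean signal of at least 10), 3 were higher and 5 lower in limma (adjusted p below 0.05, Benjamini-Hochberg over 14215 genes). Erlotinib changed most of the transcriptome, and 70.7% of all tested genes passed the same threshold (35.3% of all tested genes higher and 35.4% lower), so that 8 of 9 members is to be read against that share. With libraries scaled to their total reads, 6156 genes were higher and 3955 lower, against 5012 and 5031 here. For 8 of the 9 members the DMSO and erlotinib libraries did not overlap, against 73.6% of all tested genes. Genes higher by at least 1 log2 unit made up 17.0% of those tested and included BMF and BBC3, whereas genes lower by at least 1 log2 unit made up 10.8% and included 0 members. The log2 fold changes had a median of 0.62 over the 6 BH3-only genes and of -0.35 over the 2 tested pro-survival genes, beside a median of 0.02 and quartiles of -0.53 and 0.68 over all tested genes.

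**Figure D1:**
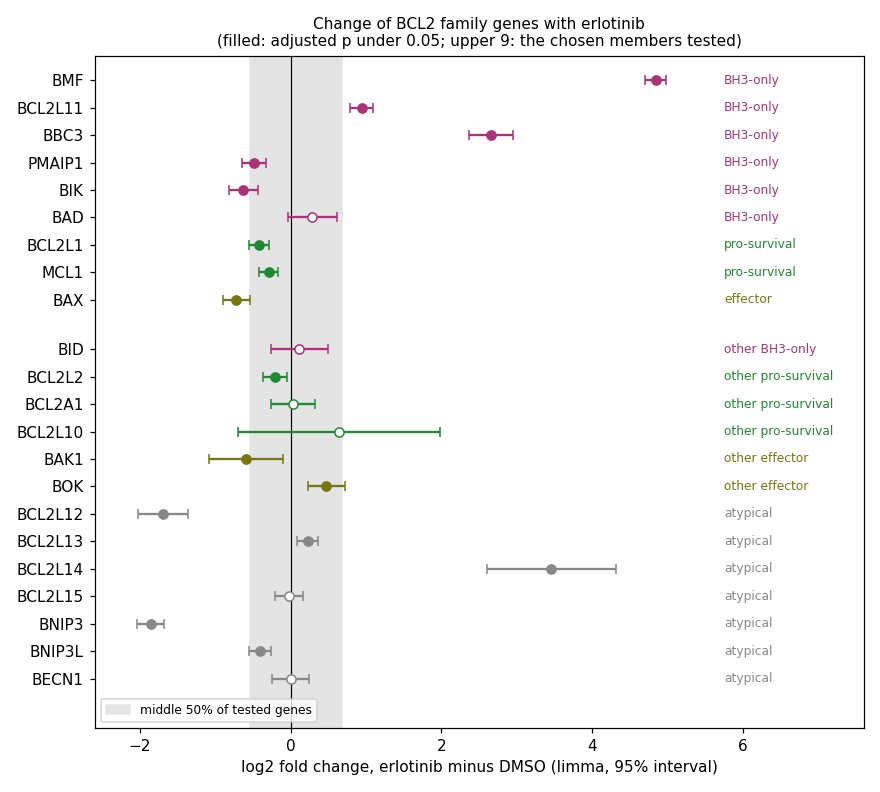
Log2 fold change (erlotinib minus DMSO) of each tested BCL2 family gene on the horizontal axis, with its 95% interval from limma. Filled points passed an adjusted p-value under 0.05, and the grey band spans the lower to the upper quartile of all tested genes (-0.53 to 0.68). BMF (4.84) and BBC3 (2.66) lie far to the right of the band, and PMAIP1, BCL2L1 and MCL1 lie inside it.

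BMF, a BH3-only protein known to be held at the cytoskeleton and to be released on loss of attachment, had the largest change of the 10 genes. Its signal was 614, 638 and 699 in the DMSO libraries. In the erlotinib libraries it was 18498, 18475 and 19022. The groups lay far apart, and the erlotinib libraries differed from each other by a few percent. The mean rose 28.7-fold, from 650.2 ± 43.9 to 18665 ± 309 (SD, n = 3 each), or by 4.84 ± 0.07 (SE) on the log2 scale (limma, adjusted p = 2.0e-21). It was the 31st largest rise among the 14215 tested genes. BMF (Entrez gene 90427) spans 40087890 to 40108879 on the minus strand of chromosome 15 in GRCh38, and no other annotated gene overlaps it. The study itself shows BMF among the genes raised in these samples, so its direction is no independent evidence.

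BBC3 encodes PUMA, which binds all pro-survival proteins and is known as a target of FOXO factors. Its signal was 119, 100.3 and 87.8 in DMSO. With erlotinib it was 668, 624 and 648. The groups were far apart, and the erlotinib libraries of BBC3 still lay below those of BMF and BCL2L11. The mean rose 6.31-fold, from 102 ± 15.8 to 646.5 ± 22.2 (SD, n = 3 each), or by 2.66 ± 0.14 (SE) on the log2 scale (limma, adjusted p = 7.0e-13). BBC3 (Entrez gene 27113, chromosome 19, 47220824 to 47232860, minus strand) overlaps only the microRNA genes MIR3190 and MIR3191, which were listed at 0 in all libraries.

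BCL2L11 encodes BIM, a BH3-only protein that ERK is known to mark for degradation and that binds all pro-survival proteins. The signal was 1352, 1386 and 1366 in DMSO, and 2664, 2530 and 2700 with erlotinib. The groups did not overlap, and the DMSO libraries were nearly equal. The mean rose 1.92-fold, from 1368 ± 16.8 to 2631 ± 89.3 (SD, n = 3 each), or by 0.94 ± 0.07 (SE) on the log2 scale (95% interval 0.79 to 1.09, adjusted p = 2.0e-10, limma). This rise lies above the upper quartile of all genes and ranked 2666 among them. BCL2L11 (Entrez gene 10018) spans 111120914 to 111168445 on the plus strand of chromosome 2. The splice forms of BIM share this one row, so their proportions are not analysed here.

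The start regions of the 3 genes that rose are shown because they are where transcription factors known to control BH3-only genes, the FOXO factors among them, could bind. Each window runs from 250 bases before to 50 bases after an annotated start (RefSeq, GRCh38.p14), 5′ to 3′ on the strand of the gene, and capitals mark a match to either of 2 motifs searched on both strands. These were GTAAACA or its reverse complement TGTTTAC (the core of a FOXO site) and TGACTCA or TGAGTCA (the AP-1 site, bound by FOS and JUN proteins). The windows lie at chr15:40108830-40109129 and chr15:40106917-40107216 for the upstream and downstream start of BMF (minus strand), chr2:111120664-111120963 for BCL2L11 (plus strand) and chr19:47232618-47232917 for BBC3 (minus strand).
BMF upstream start: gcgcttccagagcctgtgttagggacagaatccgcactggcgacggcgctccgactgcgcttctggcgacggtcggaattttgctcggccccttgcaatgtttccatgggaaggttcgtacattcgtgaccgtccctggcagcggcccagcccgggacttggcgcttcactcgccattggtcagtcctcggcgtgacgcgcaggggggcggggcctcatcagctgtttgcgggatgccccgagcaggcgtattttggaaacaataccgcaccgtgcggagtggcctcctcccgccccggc
BMF downstream start: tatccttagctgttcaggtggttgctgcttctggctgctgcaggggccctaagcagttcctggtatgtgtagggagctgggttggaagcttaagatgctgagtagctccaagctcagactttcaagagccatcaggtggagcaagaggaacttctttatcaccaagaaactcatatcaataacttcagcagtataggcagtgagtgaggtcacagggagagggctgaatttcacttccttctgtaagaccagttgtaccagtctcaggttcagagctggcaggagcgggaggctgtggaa
BCL2L11: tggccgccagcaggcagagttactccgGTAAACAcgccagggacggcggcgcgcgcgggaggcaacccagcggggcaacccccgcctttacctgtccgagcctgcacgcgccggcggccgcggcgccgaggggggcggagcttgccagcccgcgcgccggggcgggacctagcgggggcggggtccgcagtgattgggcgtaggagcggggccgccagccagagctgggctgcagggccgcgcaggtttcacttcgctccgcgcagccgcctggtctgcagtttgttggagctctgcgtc
BBC3: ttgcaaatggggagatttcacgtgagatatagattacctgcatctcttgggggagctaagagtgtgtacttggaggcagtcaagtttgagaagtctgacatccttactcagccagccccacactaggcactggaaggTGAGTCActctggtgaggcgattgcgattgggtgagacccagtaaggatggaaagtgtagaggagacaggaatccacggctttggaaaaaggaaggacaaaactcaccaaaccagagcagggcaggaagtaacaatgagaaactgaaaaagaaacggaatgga
The window of BCL2L11 held 1 FOXO core, whose first base lies at position -223 from the start. That of BBC3 held 1 AP-1 site, at -113 and on the opposite strand. Neither motif was in the windows of BMF. Among all 35116 windows of this length, 3.42% held the FOXO core and 4.95% the AP-1 site, and among the 11 windows available for members of the family 1 held each. The windows differ in composition too. The upstream start of BMF has 31 CpG dinucleotides and the downstream one 1, BCL2L11 has 39 and BBC3 has 5, beside a median of 14. The table has 1 value per gene, so which start of BMF or of BBC3 was used was not tested. The 5′ end of BBC3 at 47232860 lies inside its window, upstream of the start used there. A window around that end was not searched.

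**Figure D2:**
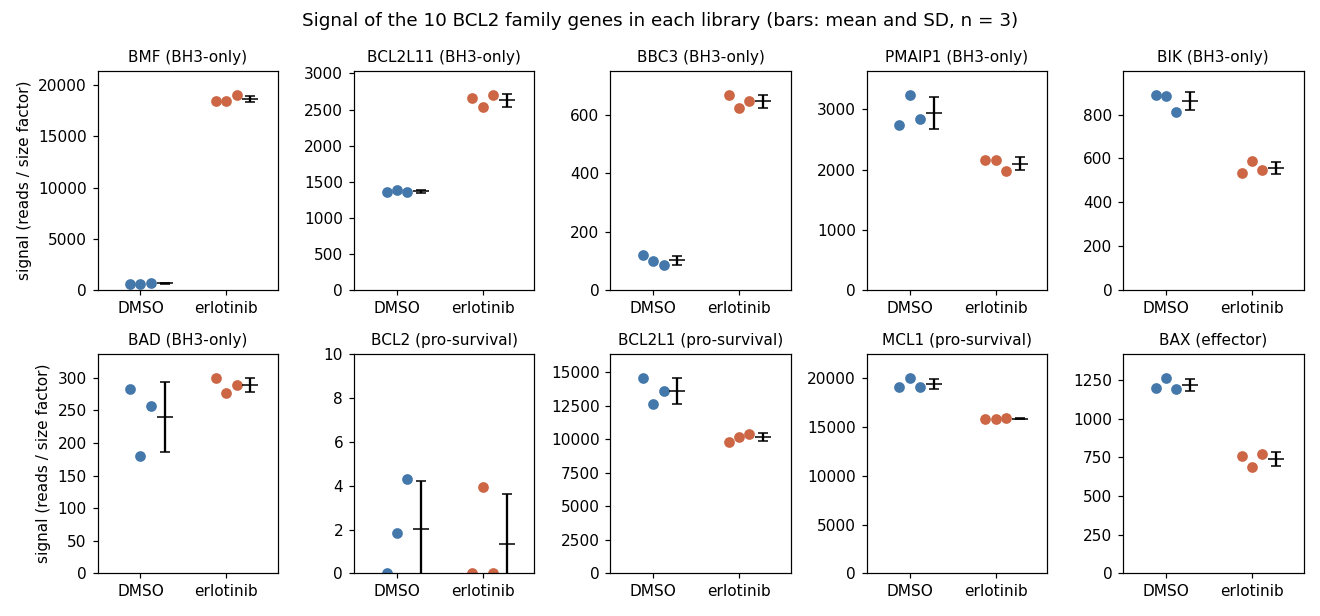
Signal (reads divided by the size factor, vertical axis from 0, each gene on its own scale) of the 10 genes in the 3 DMSO and 3 erlotinib libraries. Points are libraries, and bars give the mean and SD (n = 3). The groups are apart for every gene but BAD and BCL2, and BCL2 does not exceed a signal of 4.28 in any library.

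PMAIP1 and BIK moved the other way. PMAIP1 encodes NOXA, a BH3-only protein that binds mainly MCL1 and promotes its degradation. Its signal was 2744, 3233 and 2836 in DMSO, and 2158, 2162 and 1972 with erlotinib. The lowest DMSO library was above the highest erlotinib library. The mean fell by 28.6%, from 2938 ± 260 to 2098 ± 109 (SD, n = 3 each), and on the log2 scale the change was -0.48 ± 0.08 (SE; limma, adjusted p = 1.0e-05). BIK, a BH3-only protein of the endoplasmic reticulum, had a signal of 888, 885 and 812 in DMSO and 535, 588 and 549 with erlotinib. Its mean fell by 35.3%, and on the log2 scale the change was -0.63 ± 0.09 (SE; limma, adjusted p = 4.7e-06), which is just below the lower quartile of all genes. PMAIP1 (Entrez gene 5366) lies on chromosome 18, 59899996 to 59904305, and BIK (Entrez gene 638) on chromosome 22, 43110750 to 43129712.

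BAD, a BH3-only protein that AKT and other kinases phosphorylate and that 14-3-3 proteins then sequester, had a signal of 282, 180 and 257 in DMSO and 299, 277 and 289 with erlotinib. DMSO library 2 stood below the rest, and DMSO library 1 lay inside the range of the erlotinib libraries. The log2 fold change was 0.29 (95% interval -0.03 to 0.61, adjusted p = 0.10, limma), and it moved with single DMSO libraries. It was 0.42 (adjusted p = 0.025, limma) without DMSO library 1 and 0.0978 (adjusted p = 0.51, limma) without DMSO library 2. BAD (Entrez gene 572, chromosome 11, 64269828 to 64284704) overlaps GPR137, a gene of a lysosomal membrane protein, which rose from 377 ± 37.7 to 602 ± 60.9 (SD, n = 3 each). The strand that was counted is not stated, and the part of GPR137 in the reads of BAD was not tested.

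MCL1 and BCL2L1 had the highest signal of the 10 genes in DMSO. MCL1, a short-lived pro-survival protein, had a signal of 19060, 19953 and 19050 in DMSO. With erlotinib it was 15772, 15830 and 15920. The groups did not overlap, and the erlotinib libraries were within 1 percent of each other. The mean fell by 18.2%, from 19354 ± 518 to 15840 ± 74.6 (SD, n = 3 each), the smallest change among the members that passed (-0.29 ± 0.06 (SE) on the log2 scale, limma, adjusted p = 2.2e-04). Scaling each library to its total reads raised the median log2 fold change of all genes from 0.02 to 0.19, and MCL1 then stood at -0.11 (adjusted p = 0.096, limma). MCL1 (Entrez gene 4170) lies on chromosome 1, 150574558 to 150579610.

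BCL2L1, whose main product is the pro-survival protein BCL-XL, had a signal of 14527, 12614 and 13575 in DMSO and of 9807, 10195 and 10405 with erlotinib. The lowest DMSO library was above the highest erlotinib library. The mean fell by 25.3% (-0.42 ± 0.07 (SE) on the log2 scale, limma, adjusted p = 8.5e-06), and under scaling to total reads the log2 fold change was -0.24 (adjusted p = 0.0018, limma). BCL2L1 (Entrez gene 598, chromosome 20, 31664452 to 31723963) also gives a short form with the opposite action, which a count per gene does not separate. The gene overlaps the noncoding RNA genes BCL2L1-AS1 and LOC124904883, which have no value in these data. Their part in the reads of BCL2L1 was not tested.

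BCL2, the founding pro-survival gene, was nearly without reads. The libraries held 0, 2 and 4 reads in DMSO and 0, 4 and 0 with erlotinib, so it was not tested, and a difference was not detectable at this depth. Reads that fit more than one place were not counted. YWHAE, a 14-3-3 gene chosen after its values were seen, was at 0 in all libraries, and its whole transcript has a copy at an identity of 100% on an alternate contig of the genome. Of the 10 family genes, 0 had a copy on the 261 alternate contigs searched, BCL2 included. Only the canonical transcript of each gene was searched for, and only on these contigs, so other places that could share reads were not covered. The sources used here do not say whether the authors' reference held such contigs. Why BCL2 had so few reads was not tested. The BCL2 gene (Entrez gene 596) lies on chromosome 18, 63123346 to 63320090.

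BAX, the effector that moves from the cytosol into the outer mitochondrial membrane, fell. Its signal was 1196, 1259 and 1193 in DMSO and 759, 689 and 771 with erlotinib, with a gap between the groups. The mean fell by 39.2%, from 1216 ± 37.4 to 740 ± 44.3 (SD, n = 3 each), the largest fall of the 10 genes (-0.72 ± 0.09 (SE) on the log2 scale, limma, adjusted p = 2.3e-07). BAX (Entrez gene 581) lies on chromosome 19, 48954875 to 48961798. BAK1, the other main effector, had a far lower signal of 80.4 ± 9.16 (SD, n = 3), which went to 52.9 ± 4.24 (SD, n = 3). The log2 fold change of -0.59 passed (adjusted p = 0.031, limma), but not without DMSO library 1 (adjusted p = 0.10, limma) or without erlotinib library 4, 5 or 6 (adjusted p = 0.095, 0.051 and 0.053, limma). Nor did it pass under scaling to total reads (-0.42, adjusted p = 0.12, limma) or without the filter on low signal (adjusted p = 0.067, limma).

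Levels of different genes were compared per kilobase of annotated exon, as the sum of a gene's GENCODE exons. On this scale the order in DMSO was BCL2L1 and MCL1, then PMAIP1 and BIK, with BAX, BCL2L11, BAD, BMF and BBC3 below them and BCL2 last. The signal per kilobase of BCL2L1 was 3461, 3006 and 3234 and that of MCL1 was 3063, 3207 and 3062, so that these neighbours overlap in DMSO, as do BAD (105 to 165) and BMF (113 to 128). With erlotinib the order was BMF, MCL1, BCL2L1, PMAIP1, BIK, BCL2L11, BAX, BBC3 and BAD, and no neighbours in that order overlapped. BMF moved from place 8 to place 1, from a signal per kilobase of 119 ± 8.06 to 3427 ± 56.8 (SD, n = 3 each), while BCL2L11 was at place 6 in both groups. These places depend on the length used. The canonical transcript has 4692 bases for BMF, against 5447 of exon, 3950 against 6222 for MCL1 and 2574 against 4197 for BCL2L1. With canonical lengths and erlotinib, BMF was not first, and its libraries overlapped those of MCL1 and BCL2L1.

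Of the summed signal per kilobase of the 10 genes, BH3-only genes made up 27.9%, 30.0% and 28.2% in the DMSO libraries and 52.6%, 52.2% and 51.8% in the erlotinib libraries. Pro-survival genes made up 66.4% ± 1.27 and 45.2% ± 0.39, and BAX 4.92% ± 0.16 and 2.60% ± 0.15 (SD, n = 3 each). BMF went from 1.25% ± 0.10 to 31.2% ± 0.30 of the total, while PMAIP1 went from 14.1% ± 1.28 to 8.74% ± 0.52 and BIK from 9.48% ± 0.36 to 5.34% ± 0.26 (SD, n = 3 each). The ratio of BH3-only to pro-survival signal per kilobase rose from 0.433 ± 0.025 to 1.16 ± 0.018 (SD, n = 3 each). Without BMF it was 0.414 ± 0.025 and 0.465 ± 0.016 (SD, n = 3 each), and the summed signal per kilobase of the other 5 BH3-only genes was lower with erlotinib (2308 ± 48.4) than in DMSO (2626 ± 114) (SD, n = 3 each). For single pairs, the ratio of BCL2L11 to MCL1 per kilobase was 0.065 ± 0.0011 in the DMSO group and 0.153 ± 0.0050 in the erlotinib group, and that of PMAIP1 to MCL1 was 0.432 ± 0.027 and 0.377 ± 0.021 (SD, n = 3 each). These shares carry no test, and they depend on the lengths used.

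**Figure D3:**
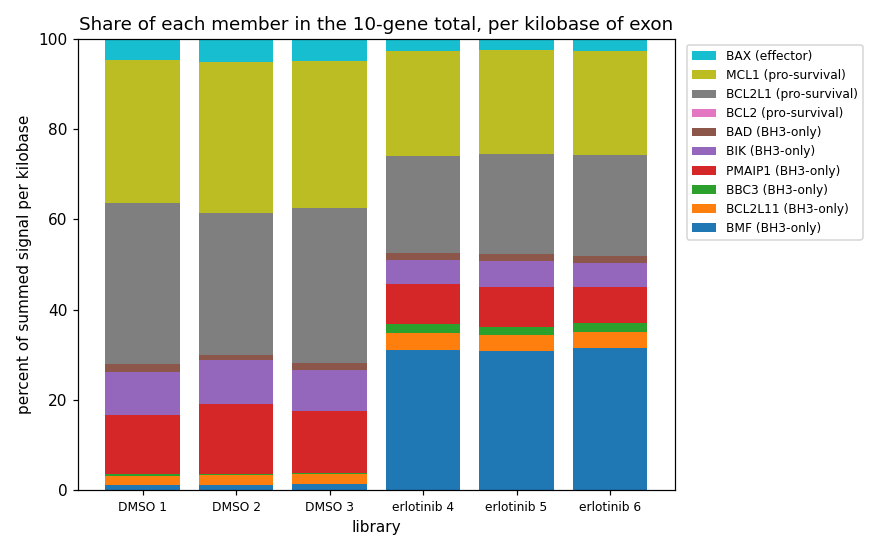
Share (percent, vertical axis) of each of the 10 genes in their summed signal per kilobase of exon, as stacked bars for each of the 6 libraries. BMF takes 1.16% to 1.36% in the DMSO libraries and 30.9% to 31.5% in the erlotinib libraries, and the bars of a group are alike.

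The other 14 genes of the family were examined the same way. Of the 13 with enough signal, 3 were higher and 5 lower (limma, adjusted p under 0.05), the median log2 fold change being 0.00. These counts are 23.1% and 38.5% of the genes tested, against 35.3% and 35.4% over all genes. The changes of over 1 log2 unit were all in atypical members. BNIP3, a mitochondrial protein induced by hypoxia that acts in mitophagy, fell from 3393 ± 383 to 934 ± 88.7 (SD, n = 3 each; log2 fold change -1.86, adjusted p = 1.4e-13, limma). BNIP3L, its close relative, fell less (-0.41, adjusted p = 2.4e-05, limma). BCL2L12 fell from 341 ± 28.4 to 105 ± 15.4 (SD, n = 3 each; log2 fold change -1.69, adjusted p = 5.6e-09, limma), and it overlaps IRF3, which had a mean signal of 1971 and fell too. BCL2L14 rose from 13, 5 and 5 reads in DMSO to 98, 82 and 106 reads with erlotinib, or 3.46 ± 0.41 (SE) on the log2 scale (limma, adjusted p = 2.1e-07). Over 15 alternatives the log2 fold change of BCL2L14 was 2.50 to 3.93.

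Among the other genes of the family, BOK, a BAX-like effector, rose by 0.47 on the log2 scale (adjusted p = 0.0014, limma), and BCL2L13 rose by 0.22 (adjusted p = 0.0063, limma, but 0.052 without erlotinib library 5). The pro-survival gene BCL2L2, which encodes BCL-W, had a log2 fold change of -0.21 (adjusted p = 0.017, limma). It missed the threshold without erlotinib library 5 (adjusted p = 0.061, limma) and under scaling to total reads (-0.03, adjusted p = 0.72, limma). BID, which links death receptors to mitochondria (0.12, 95% interval -0.26 to 0.49), the pro-survival genes BCL2A1 (0.04, -0.25 to 0.32) and BCL2L10 (0.64, -0.70 to 1.99), BCL2L15 (-0.02, -0.21 to 0.16) and BECN1, an autophagy protein with a BH3 domain (0.00, -0.24 to 0.24), passed in neither direction. HRK, a BH3-only gene, had 0 to 6 reads and was not tested.

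The transcription factors known to act on the members did not move as one. Of 16, 9 were higher (56.2%), 3 lower (18.8%) and 4 neither, against 35.3% higher and 35.4% lower over all tested genes, the median log2 fold change being 0.27. FOXO4 rose from 234 ± 36.0 to 1610 ± 25.04 (SD, n = 3 each; log2 fold change 2.79, adjusted p = 7.6e-15, limma) and FOXO1 from 165 ± 9.47 to 328 ± 51.7 (SD, n = 3 each; 0.98). FOXO3, the most abundant FOXO gene by signal, was at 2331 ± 47.9 and 2504 ± 77.4 (SD, n = 3 each; log2 fold change 0.10, adjusted p = 0.19, limma). FOXO6 (2.24) and STAT5A (1.61) rose from a low signal. TP73 had a mean signal of at most 51.4 and a log2 fold change of -0.22 (adjusted p = 0.63, limma). E2F1, a driver of S phase that also activates BH3-only genes, fell from 2561 ± 122 to 347 ± 17.3 (SD, n = 3 each; -2.88), RB1 fell by 0.77 and NFKB1 fell by 0.55 on the log2 scale. The stress factor ATF4 stood at -0.07 (adjusted p = 0.42, limma), and DDIT3, which ATF4 induces, rose by 0.61.

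Targets of these factors gave different counts. Of 20 tested FOXO targets, 17 were higher and 1 lower (limma, adjusted p under 0.05), against 35.3% and 35.4% over all tested genes, the median log2 fold change being 1.55 against 0.02 over all genes. PIK3IP1, an inhibitor of PI3K, rose by 4.09, KLHL24, an adaptor for ubiquitin ligation, by 3.91 and TNFSF10, the death ligand TRAIL, by 3.90. SESN1, the 1 lower gene, fell by 0.53 (adjusted p = 0.026, limma). The count of lower FOXO targets was 0 without DMSO library 3 and without erlotinib library 4. It was also 0 without the filter on low signal, under scaling to total reads and at an adjusted p under 0.01. TXNIP, also in this list, is likewise among the genes the study shows as raised in these samples, so its direction is no independent evidence. Leaving out genes that other lists hold, 16 of 19 were higher and 1 lower. Of 14 ATF4 stress genes, 3 were higher and 8 lower, with ATF3 (1.07) and PPP1R15A (0.58) among the former and DDIT4 (-2.03), PSAT1 (-1.65) and VLDLR (-1.31) among the latter. Of 19 tested genes of MAPK output, RNAs known to follow ERK activity, 16 were lower and 0 higher, and 3 were neither, the median being -2.12. At an unadjusted p under 0.05 (limma) the count of higher genes was also 0, and it was 0 with edgeR and with DESeq2. ETV1 (-5.04), ETV5 (-4.38) and DUSP6 (-4.33) fell most.

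**Figure D4:**
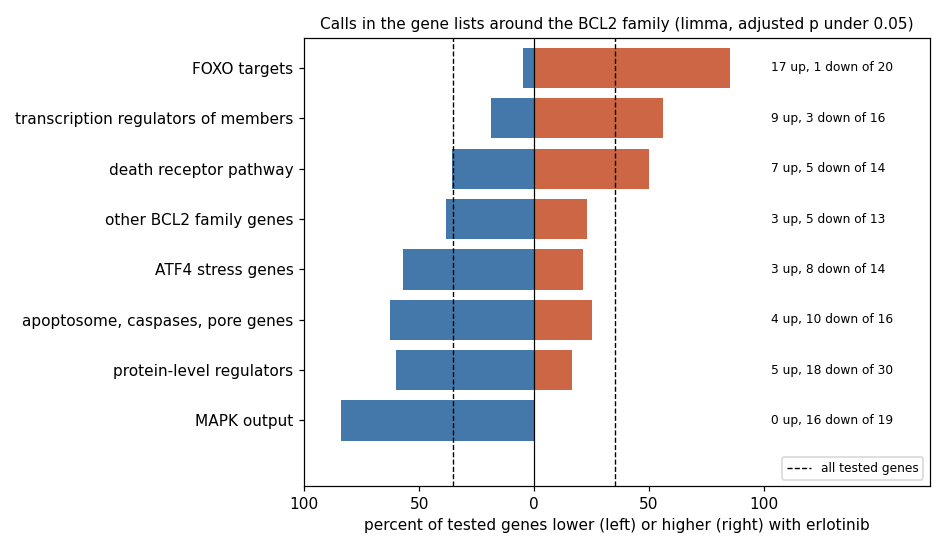
Percent of the tested genes of each list that were lower (bars to the left) or higher (bars to the right) with erlotinib at an adjusted p-value under 0.05 (limma). Dashed lines give the same over all tested genes (35.4% lower, 35.3% higher), and the list of FOXO targets (17 higher of 20) and that of MAPK output (16 lower of 19) reach farthest from them.

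Genes that act downstream of the family at the mitochondrion moved in both directions. Of 16 genes of the apoptosome, the caspases and the pore proteins of the outer membrane, 4 were higher (25%) and 10 lower (62.5%), against 35.3% and 35.4% over all tested genes, and the difference from all genes was not tested. The median log2 fold change was -0.43. CYCS, which encodes cytochrome c, fell from 11870 ± 1334 to 2778 ± 108 (SD, n = 3 each; log2 fold change -2.09, adjusted p = 1.5e-15, limma), VDAC1 fell by 1.50 and VDAC3 fell by 0.94 on the log2 scale. CYCS and the VDAC genes have processed pseudogenes, with which they can share reads. CASP6 (0.73), CASP9 (0.69), the initiator caspase of the apoptosome, and HTRA2 (0.34), a mitochondrial protease, rose. Of 14 tested genes of the death receptor pathway, 7 were higher (50%) and 5 lower (35.7%). Besides TNFSF10, the decoy receptor TNFRSF10C (2.05) and the caspase CASP10 (1.62) rose. TNFRSF10C rose from a low signal, with 20, 12 and 13 reads in DMSO and 99, 70 and 49 with erlotinib. The TRAIL receptor TNFRSF10A (-1.03), the decoy TNFRSF10D (-0.56) and the adaptor FADD (-0.54) fell.

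Of 30 tested genes whose proteins act on the BCL2 family after translation, 5 were higher (16.7%) and 18 lower (60.0%) (35.3% and 35.4% over all tested genes), the median being -0.31. SFN, a 14-3-3 protein, fell from 8737 ± 765 to 1533 ± 63.5 (SD, n = 3 each; log2 fold change -2.51, adjusted p = 7.6e-17, limma). PIM2, one of the PIM kinases that phosphorylate BAD, fell by 1.27 on the log2 scale, from 316 ± 13.3 to 130 ± 3.66 (SD, n = 3 each). The other PIM genes in the list rose, PIM3 from 2110 ± 238 to 2738 ± 16.7 (log2 fold change 0.38, adjusted p = 2.4e-04, limma) and PIM1 from 1512 ± 35.4 to 1762 ± 84.7 (0.22, adjusted p = 0.013, limma) (SD, n = 3 each), and are named after their values were seen. DYNLL1, the dynein light chain that is known to hold BIM, fell by 1.20 on the log2 scale. The kinase genes RPS6KA2 (1.38), MAPK3 (1.12) and RPS6KA3 (0.90), which belong to the ERK pathway, rose.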

How the data were processed

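The mRNA of 6 HCC827 libraries was sequenced, 3 per group. Per the study's methods and the labels, paired-end reads were mapped with Bowtie2 2.3.4 to GRCh38 and uniquely mapped reads were counted per gene with featureCounts 1.6.3. Bowtie2 does not split reads over introns, and the counted strand is not given in the sources used here. The authors deposited signal, that is, reads divided by 1 size factor per library (0.882 to 1.08), and 100% of the values were whole multiples of a library's step within 0.01 reads. Recovered totals were 20760204 to 24641819 reads, and replicates differed by more than counting noise (chi-square per degree of freedom 4.13 to 24.3).

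Genes averaging a signal of 10 or more (14215) were tested with limma 3.58.1 (trend) on log2(signal + 1), two-sided, with Benjamini-Hochberg adjustment over all of them. This scale understates the change of genes with low signal. On simulated data for this comparison (14110 genes), 89 of 100 genes changed by 1 log2 unit and 98 of 99 changed by 2 were recovered. Of the 196 calls there, 9 were false. Far fewer genes were changed in the simulation than the 70.7% called in the data, so these rates need not hold here. Alternatives were edgeR 4.0.16 with TMM factors, DESeq2 1.42.0 and limma-voom on recovered reads, other scalings, pseudocounts, filters and thresholds, and each library left out. The erlotinib columns are mapped to their group only. Lengths came from GENCODE release 44, positions and promoters from RefSeq, and copies on alternate contigs from minimap2 (at least 90% of the transcript at 97% identity). The members and lists were chosen with earlier results of these data known, and the lists were written from general knowledge. Named genes are the 10 members, the other family genes, 6 transcription factors, up to 3 rises and 3 falls per list and genes overlapping a member. Outside this rule, the cell type markers EPCAM, CDH1, KRT19, PTPRC, PECAM1, LUM, COL1A2, DCN and KDR, and IRF3, TXNIP, YWHAE, PIM1 and PIM3, were named after their values were seen. Some planned genes and 1 planned list are not reported here. A search of protein sequences was not run here. Analyses used R 4.3.3 and Python 3.11.15.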

Additional observations from a re-analysis of the deposited data

How the results depend on the processing

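Over 16 alternatives, the log2 fold changes of BMF (4.80 to 5.02), BBC3 (2.55 to 2.84), BCL2L11 (0.92 to 1.12), PMAIP1 (-0.53 to -0.30), BIK (-0.67 to -0.45), BCL2L1 (-0.47 to -0.24) and BAX (-0.75 to -0.54) kept their calls, and BCL2 could not be tested. With edgeR, 5085 genes were higher and 4941 lower. No paired analysis was possible because the erlotinib columns do not carry the replicate numbers of the labels, so the planned replicate block was not run. Scaling to total reads called BAD (0.47, adjusted p = 0.012, limma) and left 1 pro-survival member lower, 3 other family genes, 3 death receptor genes and 0 FOXO targets lower, and 8 protein-level regulators and 5 ATF4 stress genes higher. The other family genes lower were 3 at an adjusted p under 0.01 and 3 to 5 with a library left out, and the FOXO targets lower were 0 at 0.01 and without a filter, and 0 to 1 with a library left out.

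The BH3-only share per kilobase was 28.7% in DMSO and 52.2% with erlotinib. It was 25.1% and 48.7% with the longest transcript as length, 42.6% and 68.0% without MCL1, which has the highest level per kilobase over all 6 libraries together but is at place 2 in each group, and, chosen after seeing the data, 21.3% and 43.5% with the canonical transcript and 27.8% and 30.5% without BMF. Genes that passed in neither direction also changed sign. With a library left out, BID was at -0.0935 to 0.26, BCL2A1 at -0.0404 to 0.15, BCL2L10 at -0.0254 to 1.30, BCL2L15 at -0.0882 to 0.0474 and BECN1 at -0.12 to 0.0578. BCL2L15 was at 0.16 under scaling to total reads, and BECN1 at 0.18 there, 0.0252 with edgeR, 0.0166 with DESeq2, 0.0181 with limma-voom and 0.00011 with a pseudocount of 10. The cause was not tested. Depth limits BCL2, HRK, BCL2L10 and BCL2L14 most.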
